A study of Mus musculus with 13 samples.

Results

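The peroxisome proliferator-activated receptors (PPARs) and the enzymes of fatty acid oxidation were followed through a circadian time course of the mouse aorta. The group was defined by name and held 10 genes: the receptors Ppara, Ppard and Pparg, the oxidation genes Cpt1b, Cpt2, Acadm, Acadl and Hadh, and the fuel-switch genes Pdk4 and Ucp2. The platform annotation assigned 9 probe sets (sets of short oligonucleotides that together measure a transcript) to 8 of these genes, out of 12422 probe sets in all, and none of the 9 was shared with another gene. Of the 9, 7 passed the filter on low intensity, 1 for each of 7 genes, against 7453 of the 12422 in the whole series. Cpt1b, the muscle form of the enzyme that loads fatty acids onto carnitine, and Ucp2, a carrier of the inner mitochondrial membrane, were not analysed here because the annotation assigned them no probe set.

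The tissue was aorta of c57/Bl6 mice, an inbred laboratory strain. All mice shared the same history of 2 weeks under 12 h of light and 12 h of dark followed by 36 h of constant darkness, after which aortae were collected every 4 h for 48 h. There was no other treatment or genotype, and the labels give neither age nor sex. RNA of 6 pooled aortae was taken at each of 12 circadian times (CT), so the second day ran from CT42 to CT62 and the first from CT18 to CT38, with 6 pools each; CT18 had 2 arrays, which were averaged as 1 pool, giving 13 arrays in all.

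PPARs are nuclear receptors that bind fatty acids and their derivatives, pair with a retinoid X receptor on DNA and switch on genes of lipid uptake, storage and oxidation. PPAR alpha is best known for driving fatty acid oxidation in liver, heart and brown fat, PPAR delta is broadly expressed, and PPAR gamma directs the formation of fat cells. In fatty acid oxidation, carnitine carries the fatty acid into the mitochondrion, acyl-CoA dehydrogenases and a hydroxyacyl-CoA dehydrogenase shorten it in cycles, and pyruvate dehydrogenase kinases hold back the competing use of glucose. An aorta is mainly smooth muscle with an endothelial lining, and the fat around it resembles brown fat in rodents.

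The arrays had been scaled alike: the trimmed mean intensity was 200.2 on every array, and 21.3% to 24.2% of values per array were not positive. The number of pools limits the precision of every value. Smooth muscle markers were present in all pools (6 of 8 listed genes passed the filter, summed intensity 11144 to 16270). Of the brown fat markers 6 of 7 listed passed, with a summed intensity of 21310 to 30340. Their sum was carried by Cidea, Cox8b and Ucp1, the uncoupling protein of brown fat (5896 to 10111), while Dio2 ran from 152 to 652, Ppargc1a from 41.5 to 99.5 and Elovl3 from the floor to 82.4 (these genes are named after their values were seen). Adipocyte markers (6 of 8 passed) summed to between 19123 and 24990, and skeletal muscle markers (14 of 16 passed) to between 6522 at CT54 and 33319 at CT34. Clock genes served as a check of the time labels: Nr1d2 fitted a peak at CT9.30 (amplitude 1.72 ± 0.10, log2, SE, limma adjusted p = 1.19e-05), Dbp at CT8.46 (adjusted p = 0.0410) and Per2 at CT13.5 (adjusted p = 0.00897), and Arntl, which did not pass, at CT22.1 (adjusted p = 0.115). Dbp lay at the floor in 7 of the 12 pools, Per2 in 3 and Nr1d2 in 1, so fitted sizes for these depend on the floor.

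Ppara stood at 333 and 348 on the CT18 arrays, 460 at CT22, 882 at CT26, 981 at CT30, 939 at CT34 and 511 at CT38 on the first day. On the second day it stood at 509 at CT42, 537 at CT46, 810 at CT50, 988 at CT54, 1013 at CT58 and 351 at CT62 (linear intensity, probe set 102668_at). All 6 pools of the subjective day, the hours that had been light before the constant darkness, lay above all 6 pools of the subjective night. The level averaged 936 ± 76.5 in the subjective day and 451 ± 85.5 in the subjective night (SD, n = 6 pools each). It ranged over 810 to 1013 in the subjective day and 340 to 537 in the subjective night. The fold was 2.10 between geometric means. This day and night split was added after the data were examined and is a description of the same rhythm that the fit below tests. Over the whole series 0.577% of probe sets had every subjective day pool above every subjective night pool, and 0.349% had every one below. The other 6 detected members had overlapping ranges.

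**Figure D1:**
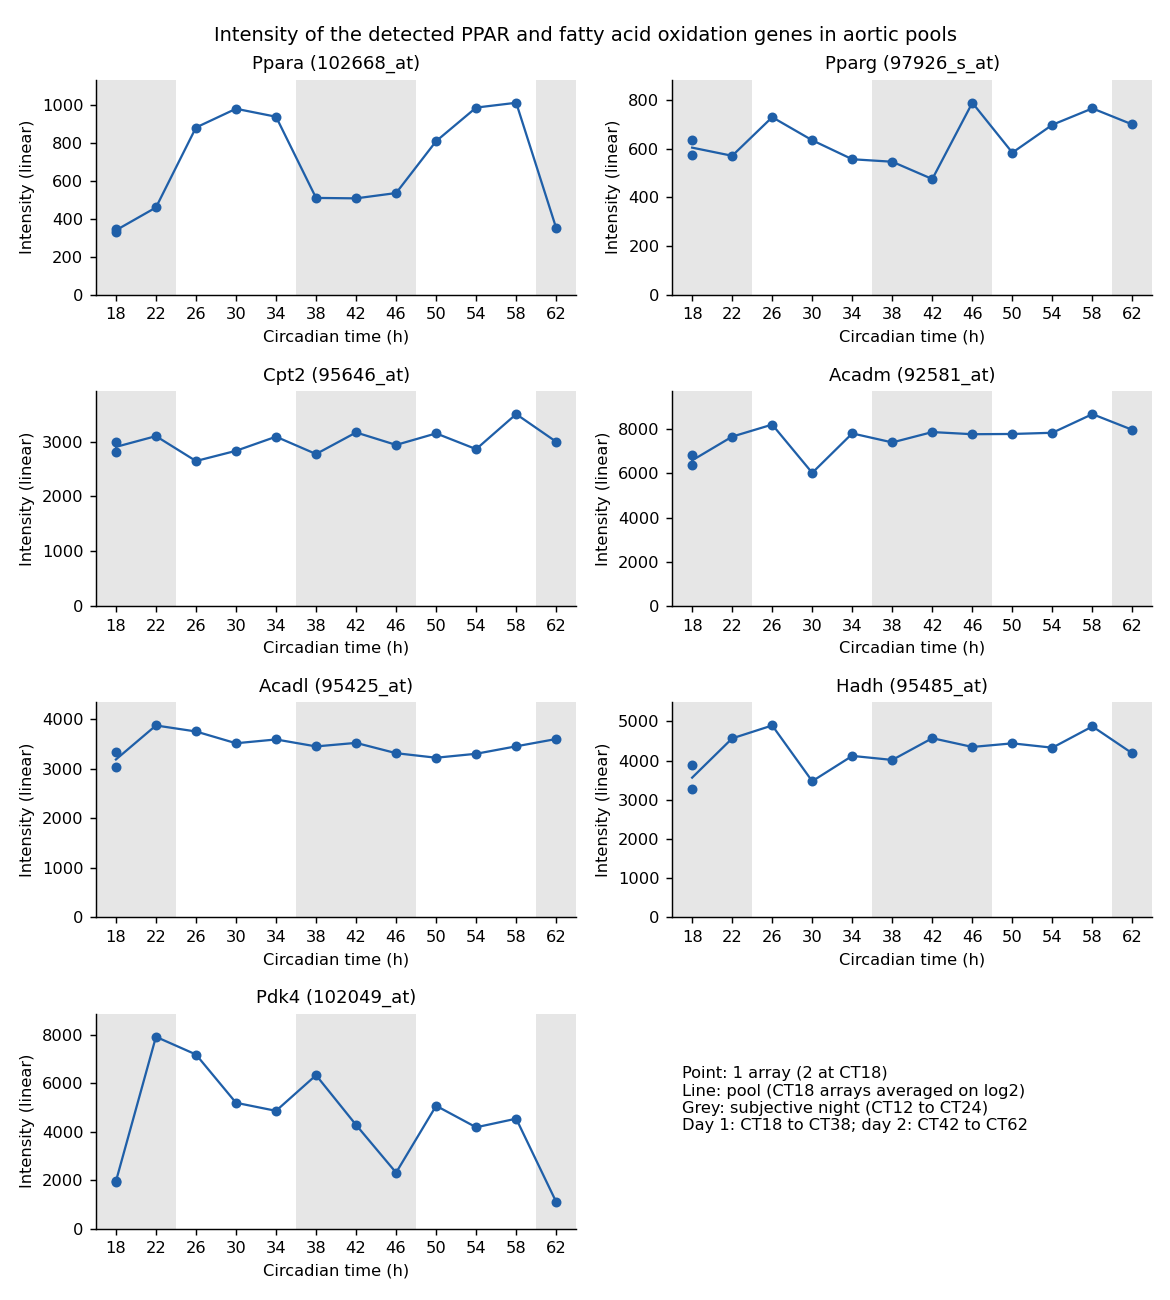
Linear intensity (vertical axis, from 0) of the 7 detected members against circadian time in h, with 1 point for each array and a line through the 12 pools. Ppara lies between 810 and 1013 in the unshaded subjective day and at 537 or below in the grey subjective night, Pdk4 swings from pool to pool, and the other 5 stay within a 1.66-fold range.

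A 24-h cosine fitted to the 12 pools gave Ppara an amplitude (mean to peak) of 0.74 ± 0.10 on the log2 scale (SE) with a peak at CT5.96 ± 0.51 h. The adjusted p was 0.0173 by limma over all 7453 probe sets, and the cosine took up a share of 0.841 of the variance over pools (R2). Ppara was the 1 member of the 7 that passed, and 0.349% of all probe sets passed. With 1 pool a time point, the p reflects how far pools scatter from the fitted curve. The fit held an amplitude of 0.64 to 1.09 in all 26 alternatives of processing, and it passed in 18 of them. Among fits that left out a pool or array, it was lost without both CT18 arrays (adjusted p = 0.0607) and without CT54 (0.0543). In this tissue, fewer cells of a type and less RNA per cell cannot be told apart.

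At 4 of the 6 circadian times the pools 24 h apart gave Ppara levels within 1.2-fold of each other. At circadian time 6 the levels were 988 on the second day and 981 on the first, at circadian time 10 they were 1013 and 939, at circadian time 2 they were 810 and 882, and at circadian time 22 they were 537 and 460. At circadian time 14 they were 351 on the second day and 511 on the first, and at circadian time 18 they were 509 and 340. The pools thus repeated most closely in the subjective day, and the lowest pool was CT62 on the second day and CT18 on the first. Fitted separately, the amplitude was 0.68 on the second day and 0.82 on the first, with peaks at CT5.53 and CT6.33. A test of the difference in rhythm between the days, added after the data were examined, gave an adjusted p of 0.908 for Ppara. No member passed that test, and neither did any of the 7453 probe sets (0%) by limma, with a lowest adjusted p of 0.638 and 520 (6.98%, no member among them) at an unadjusted p below 0.05.

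**Figure D2:**
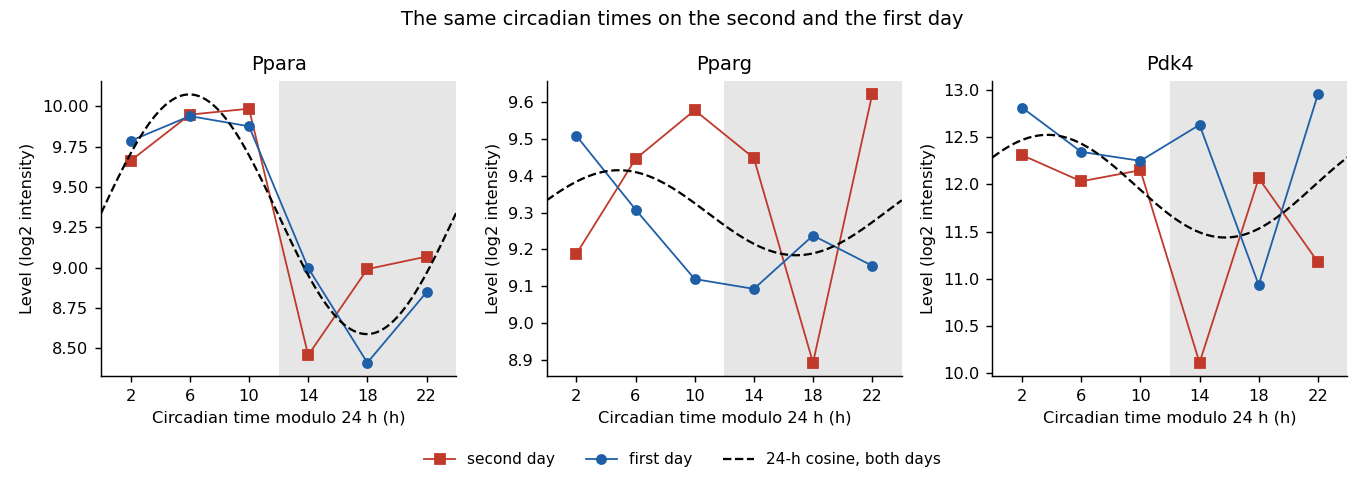
Log2 intensity against circadian time in h for Ppara, Pparg and Pdk4, with the second day as red squares, the first day as blue circles and the cosine fitted to both days as a dashed line; grey marks the subjective night. The Ppara days overlie in the subjective day, while pools 24 h apart lie further from each other for Pdk4 in the subjective night. No difference in rhythm between the days passed the test (adjusted p = 0.908 for Ppara, 0.888 for Pparg and 0.990 for Pdk4).

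The sequence upstream of Ppara is shown because it is the member with a rhythm past the threshold, and those of Pdk4 and Acadm are shown for comparison, as the member with the widest range and a member without a fitted rhythm. Each is the 250 bases before a RefSeq transcript start on mouse build GRCm38.p6, read along the gene's own strand, and ends at the base before the start. For Ppara that start lies 866 bases downstream of the outermost start of the gene in RefSeq, so the stretch is not the sequence before that outermost start; for Pdk4 and Acadm the 2 starts are the same. The Ppara stretch is chr15:85735526-85735775 on the plus strand, that of Pdk4 is chr6:5496279-5496528 on the minus strand and that of Acadm is chr3:153944644-153944893 on the minus strand. Capitals mark the nuclear receptor hexamer AGGTCA, on either strand.
Ppara: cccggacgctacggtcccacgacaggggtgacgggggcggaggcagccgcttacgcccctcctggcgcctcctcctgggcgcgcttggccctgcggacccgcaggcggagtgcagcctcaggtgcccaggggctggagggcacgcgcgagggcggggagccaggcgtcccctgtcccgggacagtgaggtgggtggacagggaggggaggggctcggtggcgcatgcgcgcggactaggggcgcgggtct
Pdk4: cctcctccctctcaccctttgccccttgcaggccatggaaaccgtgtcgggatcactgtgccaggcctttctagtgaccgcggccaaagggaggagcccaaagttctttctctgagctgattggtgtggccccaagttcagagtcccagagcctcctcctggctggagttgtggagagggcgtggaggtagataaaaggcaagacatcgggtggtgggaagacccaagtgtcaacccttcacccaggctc
Acadm: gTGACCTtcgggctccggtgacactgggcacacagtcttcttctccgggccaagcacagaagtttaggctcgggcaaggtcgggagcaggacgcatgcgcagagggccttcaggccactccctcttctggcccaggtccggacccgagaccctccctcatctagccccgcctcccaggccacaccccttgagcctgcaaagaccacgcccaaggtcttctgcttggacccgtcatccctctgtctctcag

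Motif searches covered both strands of a window of 250 bases before to 50 after each start, for 9 members with 11 windows (Pparg has 3) and for all 32851 windows of the RefSeq promoter table. The Ppara and Pdk4 windows held none of the motifs searched: the clock E-box CACGTG (in 7.15% of all windows), the ROR element core TAGGTCA (2.61%), the D-box TTATGTAA (0.938%), the hexamer AGGTCA (16.3%, which the ROR core contains), and a direct repeat of the hexamer with 1 base between and at most 2 mismatches (3.86%). The hexamer lay once in the Acadm window, on the strand opposite to the gene, at bases -249 to -244, and once in each of 2 Pparg windows, at -28 to -23 and at -9 to -4. Ppard, Cpt2, Acadl, Hadh and Ucp2 windows held none of these motifs. A match is a string of letters and not a site shown to be bound, and the windows leave out all distal sequence.

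Pparg, the receptor of fat cells, varied little. On the CT18 arrays it stood at 576 and 633. Over the 12 pools its intensity ran from 475 at CT42 to 788 at CT46, with a median of 619, so the lowest and the highest pool were neighbours in time. The 24-h fit gave 0.12 ± 0.09 (log2 amplitude, SE) and CT4.86 ± 2.91 h (SE) as its peak, and it did not pass (limma adjusted p = 0.805). Pools 24 h apart differed in both directions: at circadian time 22 the level was 788 on the second day and 570 on the first, and at circadian time 18 it was 475 and 604. The suffix of this probe set (97926_s_at) marks oligonucleotides that can match several transcripts of a gene or family.

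Ppard, the broadly expressed receptor, was not measured above background. Its probe set (94198_at) gave intensities of -50.0 to 18.6, all 13 below the floor of 36.7 and 9 of them at or below 0, so no rhythm or level can be stated for it. A further Cpt2 probe set (161978_r_at) read -13.6 to -0.694, at or below 0 on all 13 arrays, while the main one was bright. Such readings give no level for the transcript.

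The rhythm of Ppara was also compared with that of Pparg directly, through the difference of their log2 profiles in the same pools. The difference peaked at CT6.16 with an amplitude of 0.63 (R2 = 0.638, permutation test of the time points, one-sided, adjusted p = 0.0219 over 3 receptor pairs). It was lost without both CT18 arrays (0.0577), without CT30 (0.0527) and without CT18, CT34 and CT58 together (0.147). The pair Ppara minus Ppard repeats the Ppara profile, because Ppard lay at the floor throughout (permutation adjusted p = 0.00480), and Pparg minus Ppard had an R2 of 0.146 (permutation adjusted p = 0.481).

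Pdk4, the kinase that inactivates pyruvate dehydrogenase and spares glucose when fat is burned, had the widest range of the members. On the first day it stood at 1936 and 1982 on the CT18 arrays, 7922 at CT22, 7192 at CT26, 5200 at CT30, 4867 at CT34 and 6339 at CT38. On the second day it stood at 4286 at CT42, 2317 at CT46, 5076 at CT50, 4189 at CT54, 4544 at CT58 and 1107 at CT62 (probe set 102049_at). The highest pool, CT22, was 7.16-fold above the lowest, CT62, and the 2 CT18 arrays differed by 1.02-fold. The SD of its log2 level over pools was 0.83, at the 94.1th percentile of all probe sets kept, whose median was 0.33.

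Pools 24 h apart gave unlike Pdk4 levels in the subjective night. At circadian time 14 the level was 1107 on the second day and 6339 on the first, a ratio of 0.175, and at circadian time 22 it was 2317 and 7922, a ratio of 0.293. At circadian time 18 the order turned, with 4286 on the second day and 1959 on the first, a ratio of 2.19. In the subjective day the pools were closer: 5076 on the second day and 7192 on the first at circadian time 2, 4189 and 5200 at circadian time 6, and 4544 and 4867 at circadian time 10. All 6 subjective day pools lay between 4189 and 7192, while the subjective night pools ran from 1107 to 7922 and included both extremes. The 24-h fit peaked at CT3.73 ± 1.96 h with an amplitude of 0.54 ± 0.28 (log2, SE for both). It did not pass (limma adjusted p = 0.675), and the cosine took up a share of 0.232 of the variance. Fitted separately, the peak was CT3.71 on the second day and CT3.75 on the first, with amplitudes of 0.63 and 0.46. Each of these rests on 6 pools and no SE was computed for it, so their closeness is no measure of precision. The difference in rhythm had a limma adjusted p of 0.990. The amplitude over both days ran from 0.29 with the adipocyte marker mean as a covariate to 1.69 with the skeletal muscle, atrial and thymus means, and it did not pass in any of 26 alternatives.

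The mitochondrial enzymes were nearly flat across the circadian time course. Acadm, the medium-chain acyl-CoA dehydrogenase (92581_at), had a lowest pool of 6028 at CT30, a median of 7801 and a highest of 8686 at CT58. Acadl, the long-chain acyl-CoA dehydrogenase (95425_at), ran from 3183 at CT18 to 3867 at CT22 with a median of 3478, a range of 1.22-fold. By the SD of the log2 level over pools, Acadl lay at the 0.657th percentile of all probe sets kept, Cpt2 at the 2.75th, Acadm at the 8.52th and Hadh at the 11.4th, so all 4 were among the steadier transcripts measured. Probe sets of like intensity were not compared separately, here or for the amplitudes below. Hadh, the hydroxyacyl-CoA dehydrogenase that carries out the third step of the cycle (95485_at), ran from 3474 at CT30 to 4896 at CT26 with a median of 4338. Cpt2, which frees the fatty acid from carnitine inside the mitochondrion (95646_at), ran from 2645 at CT26 to 3501 at CT58 with a median of 2968.

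The coefficient of variation over the 12 pools was 5.94% for Acadl, 7.51% for Cpt2, 9.22% for Acadm and 10.4% for Hadh, against 15.3% for Pparg, 38.1% for Ppara and 44.7% for Pdk4. The 2 CT18 arrays alone differed by 1.06-fold for Cpt2, 1.07-fold for Acadm, 1.10-fold for Acadl and 1.19-fold for Hadh, and the ranges over pools were 1.32-fold, 1.44-fold, 1.22-fold and 1.41-fold in the same order. Fitted 24-h amplitudes were 0.04 ± 0.05 for Cpt2, 0.01 ± 0.06 for Acadm, 0.00 ± 0.04 for Acadl and 0.05 ± 0.06 for Hadh (log2, SE, n = 12 pools). None passed, with limma adjusted p of 0.917 to 1.00 and none below 0.05 in any of the 26 alternatives. The median amplitude of the 7 members was 0.05, against 0.18 over all probe sets kept.

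**Figure D3:**
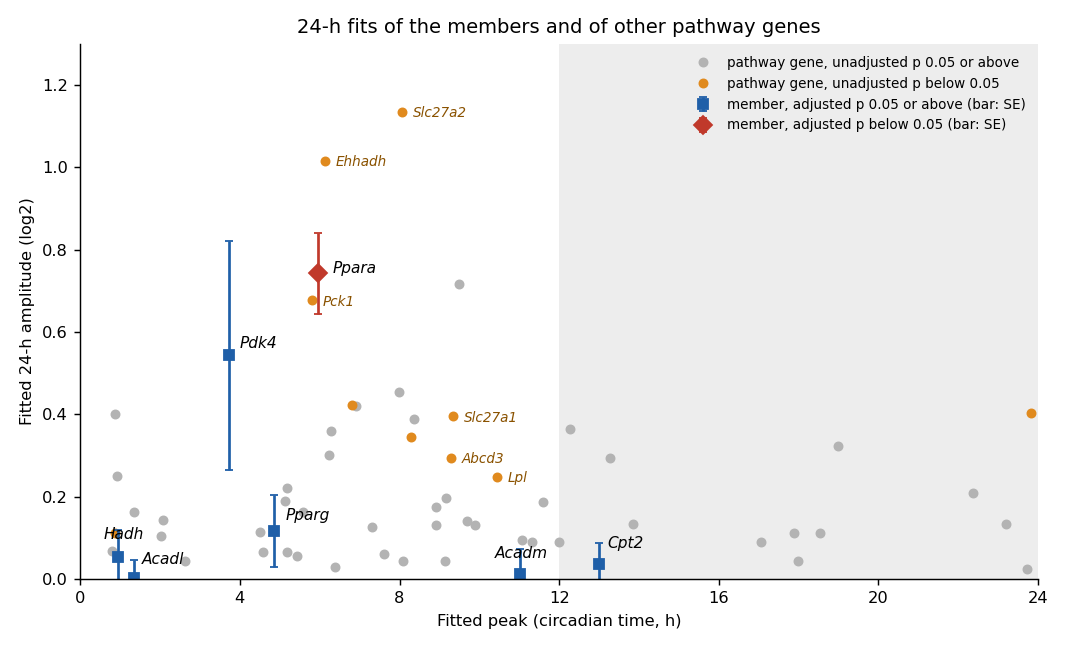
Fitted 24-h amplitude (log2, vertical axis) against fitted peak in h of circadian time, with SE bars on the members (diamond, past the threshold; squares, not past it) and circles for 55 other genes of the pathway. Ppara is the diamond at CT5.96 and 0.74, the mitochondrial enzymes lie at 0.05 or below, and the circles with an unadjusted p below 0.05 lie mostly between CT4 and CT12.

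Acadm and Hadh followed each other over the 12 pools (Pearson r = 0.92 of log2 levels), and both had their 2 lowest pools at CT30 and CT18 and their 2 highest at CT26 and CT58. Acadm stood at 6028 and Hadh at 3474 at CT30, and at 8213 and 4896 at CT26. Ppara and Pdk4 had r = 0.56, Pparg and Pdk4 r = -0.31, and the remaining 18 pairs of members lay between -0.10 and 0.42. These values describe 12 pools that share arrays and tissue makeup.

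Genes with the most similar profile were looked up for each member among 5654 others, by Pearson r over the 12 pools. For Acadm they were Etfb (0.95), a subunit of the flavoprotein that takes electrons from acyl-CoA dehydrogenases, 4833439L19Rik (0.93) and Echs1 (0.93), the enoyl-CoA hydratase of the same cycle. For Hadh they were Ech1 (0.93), an isomerase of unsaturated fatty acid oxidation, and Uqcrc2 (0.93) and Ndufs3 (0.93), subunits of respiratory complexes III and I. For Acadl they were Prxl2a (0.92), Vps29 (0.88) and Ethe1 (0.88), a mitochondrial enzyme of sulfide breakdown. For Cpt2 the likeness was lower, with the mitochondrial ribosomal proteins Mrps7 (0.79) and Mrpl34 (0.76), and Uqcc1 (0.76), an assembly factor of complex III.

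For Ppara the most similar profiles were those of Atp1b3 (0.90), a subunit of the sodium pump, Slc35b2 (0.90), a carrier of the sulfate donor in the Golgi, and Pim1 (0.88), a kinase. Pim1 itself had a rhythm past the threshold (amplitude 0.35, peak CT4.93, limma adjusted p = 0.0484). Those of Slc35b2 (0.38, CT4.57, adjusted p = 0.0954) and Atp1b3 (0.12, CT5.24, adjusted p = 0.461) did not pass. All 3 were picked for likeness to Ppara over these same pools, so their peak times are a description. For Pparg they were Lonp2 (0.87), a protease of peroxisomes, Atxn10 (0.84) and Tpp1 (0.83), a lysosomal peptidase. For Pdk4 they were Txnip (0.89), an inhibitor of glucose uptake, 1810021B22Rik (0.85) and Angptl4 (0.84), an inhibitor of lipoprotein lipase whose gene is a known PPAR target.

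Txnip and Angptl4 shared the highest and the lowest pools of Pdk4; they were picked for likeness over these same pools, so this is a description. Txnip stood at 1489 at CT18, 5283 at CT22, 4552 at CT26 and 4314 at CT38, and at 1723 at CT46 and 1398 at CT62. Angptl4 stood at 408 at CT18, 1329 at CT22, 1608 at CT26 and 871 at CT38, and at 506 at CT46 and 332 at CT62. In all 3 genes the 3 highest pools were CT22, CT26 and CT38 and the 3 lowest were CT18, CT46 and CT62. They parted at CT30, CT50 and CT54, where Pdk4 lay above its log2 mean while Txnip and Angptl4 lay below theirs. At CT50 Txnip stood at 2017 and Angptl4 at 591. Pdk4 was also above its mean at CT34, CT42 and CT58. Angptl4 alone lay below its mean at CT34 and CT58, and Txnip alone did at CT42. The Txnip and Angptl4 probe sets carry the same suffix for several transcripts as that of Pparg.

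**Figure D4:**
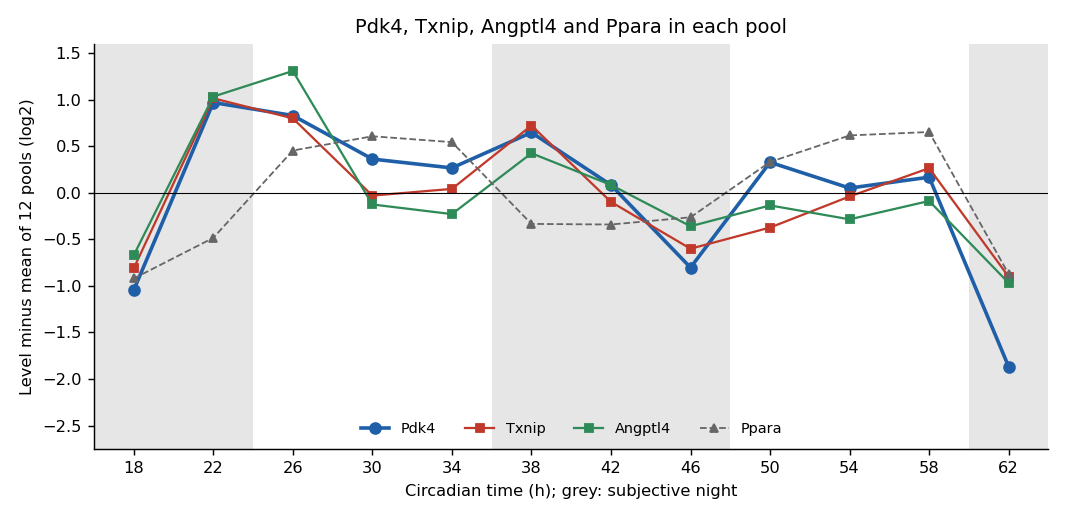
Log2 level minus the mean of the 12 pools for Pdk4, Txnip, Angptl4 and Ppara against circadian time in h, with the subjective night in grey. Pdk4, Txnip and Angptl4 are low at CT18, CT46 and CT62 and high at CT22, CT26 and CT38. Ppara (dashed) is above its mean at CT26 and below it at the other times named.

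The second day was set against the first to see if levels changed as darkness went on. No member passed, and neither did any of the 7453 probe sets by limma (0%, lowest adjusted p 0.416, with 562, or 7.54%, at an unadjusted p below 0.05 and no member among them). Pdk4 averaged 3586 ± 1533 on the second day and 5580 ± 2118 on the first (SD, n = 6 pools each). The difference, second day minus first, was -0.68 on the log2 scale with a 95% interval from -1.47 to 0.11 (adjusted p = 0.691). Ppara averaged 701 ± 275 on the second day and 686 ± 280 on the first, a log2 difference of 0.04 (interval -0.27 to 0.36). Differences of the other 5 ran from -0.06 for Acadl to 0.14 for Acadm, each with an interval that included 0. Acadm averaged 7990 ± 348 on the second day and 7287 ± 820 on the first. Pools of both days overlapped for every detected member.

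Several of these genes are also transcribed in striated muscle and in fat, so each was set against the mean log2 level of marker lists in the same pools, with the 24-h terms in the fit. On skeletal muscle markers the slopes of the 7 members ran from -0.15 ± 0.31 for Pdk4 to 0.07 ± 0.05 for Cpt2 (log2 per log2 unit of markers, SE), and 0 passed by limma (adjusted p from 0.958 to 0.993), against 0.389% of all probe sets. The muscle markers themselves were 11 of the 29 probe sets that passed. Ppara had a slope of 0.07 ± 0.11, with a 95% interval from -0.17 to 0.31. No member had an unadjusted p below 0.05 there, against 5.31% of probe sets.

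On adipocyte markers 0 members and 0% of probe sets passed by limma, with 537 probe sets (7.21%) at an unadjusted p below 0.05 and no member among them. Slopes were 0.77 ± 0.38 for Pparg, 0.55 ± 0.26 for Acadm, 0.50 ± 0.29 for Hadh, 0.31 ± 0.23 for Cpt2, 0.10 ± 0.49 for Ppara and 0.02 ± 0.22 for Acadl, while that of Pdk4 was -2.47 ± 1.20 (SE, adjusted p from 0.682 to 0.989). On brown fat markers again 0 members and 0% of probe sets passed, with 390 probe sets (5.23%) at an unadjusted p below 0.05. Cpt2 was among these with a slope of 0.43 ± 0.18 (unadjusted p = 0.0364, adjusted p = 0.868). Ppara had a slope on brown fat markers of 0.18 ± 0.44 and Pdk4 of -1.62 ± 1.15.

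With the brown fat marker mean as a covariate the amplitude of Ppara was 0.71 ± 0.13 (SE) and its limma adjusted p was 0.195, and with the adipocyte marker mean it was 0.75 ± 0.12 and 0.0527. Each brown fat marker counted alike in that mean, whatever its intensity. Slopes on it were 2.00 for Elovl3, 1.97 for Dio2 and 0.72 for Ppargc1a, against 0.31 for Cidea and 0.09 for Cox8b. Cidea and Ppargc1a are also in the pathway lists below. The mean is thus no direct measure of the amount of brown fat. The brown fat markers were highest at CT58 (0.52 above their mean, log2), where Ppara, Cpt2 and Acadm also had their highest pool. Skeletal muscle markers were 0.80 above their mean in the same pool. The part of these tissues in the member values was not tested beyond these fits.

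**Figure D5:**
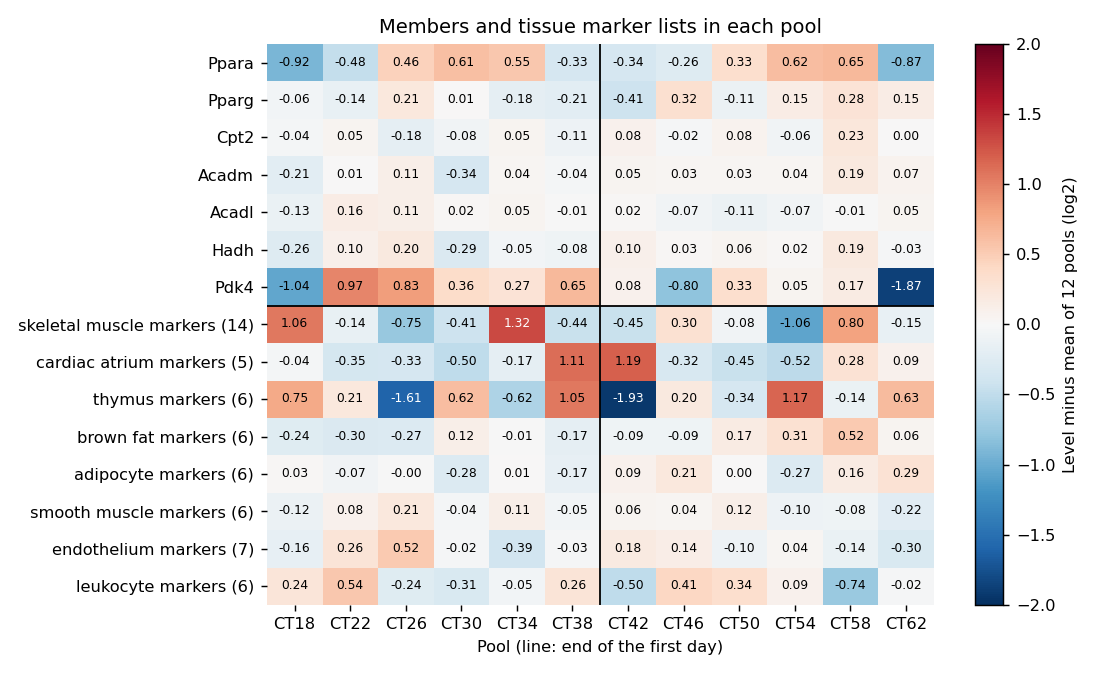
Log2 level minus the mean of the 12 pools (colour and printed value) for the 7 detected members above the line and for 8 marker lists below it, with pools from CT18 to CT62 across and the number of genes in each list in brackets. Ppara is above its mean in the 6 subjective day pools, and at CT58 the brown fat (0.52) and skeletal muscle (0.80) lists are raised as well.

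Other genes of the pathway were taken from 6 lists, with 78 genes listed, 61 with a probe set and 55 past the filter. For the 24-h rhythm 0 of the 55 passed by limma, and 10 had an unadjusted p below 0.05 (18.2%, against 9.96% of all probe sets kept). Of these 10, 8 had a fitted peak between CT4 and CT12 (80%), against 262 of the 742 such probe sets in the series (35.3%). That window was chosen after the peaks were seen. The counts describe genes measured in the same pools and are not a test. Among the 8, Slc27a1, Slc27a2, Crat, Abcd3 and Lpl had their highest pool at CT58, Cpt1a and Ehhadh at CT30 and Pck1 at CT26. CT58 was also the highest pool of the brown fat markers, and of Etfb and Echs1, whose unadjusted p was not below 0.05. The part of this 1 pool in the shared peak times was not tested.

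The carnitine shuttle and fatty acid activation list held 5 of the 10. Slc27a2, a fatty acid transporter and acyl-CoA synthetase, ran from 96.1 at CT18 to 728 at CT58, and its fit peaked at CT8.07 with 1.14 ± 0.24 (log2 amplitude, SE; limma adjusted p = 0.120). On the second day it stood at 102 at CT46 and 537 at CT54, and on the first at 387 at CT22 and 556 at CT30. Slc27a1, its relative in muscle and fat, had 0.39 ± 0.07 and CT9.33 (adjusted p = 0.0822). The other 3 are named after their values were seen: Crat, carnitine acetyltransferase (0.35 ± 0.07, CT8.28, adjusted p = 0.139), Cpt1a, the form of the entry enzyme best known from liver (0.42 ± 0.13, CT6.80, adjusted p = 0.417), and Acsl5, a long-chain acyl-CoA synthetase (0.40 ± 0.11, CT23.8, adjusted p = 0.347). The fitted peak of Acsl5 thus fell at the end of the subjective night, while those of Slc27a1, Slc27a2, Crat and Cpt1a fell in the subjective day. Acsl5 had a lowest pool of 649 at CT38 and a highest of 1661 at CT50. Cpt1a ran from 126 at CT46 to 320 at CT30.

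In the mitochondrial oxidation list 0 of 11 had an unadjusted p below 0.05, and the smallest p values were those of Etfdh (0.13 ± 0.06, CT13.9) and Acads, the short-chain dehydrogenase (0.16 ± 0.08, CT5.59). The median amplitude of this list was 0.06, against 0.39 in the carnitine and activation list and 0.18 over all probe sets kept. All 11 had a positive slope on adipocyte markers (median 0.44), against 43.4% of all probe sets. None of these slopes passed, and 3 had an unadjusted p below 0.05. Markers of other tissues moved along the same axis: 14 of 14 skeletal muscle markers had a positive slope on it (median 1.79, against 0.96 for the adipocyte markers themselves), and 1 of 6 thymus markers did (median -2.60). Their part in the slopes of the oxidation genes was not tested.

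In the peroxisomal and omega oxidation list 2 of 9 had an unadjusted p below 0.05. Abcd3, a fatty acid transporter of the peroxisome, had 0.29 ± 0.06 and CT9.28 (log2 amplitude, SE, and peak; limma adjusted p = 0.100). Ehhadh, the bifunctional enzyme of peroxisomal oxidation, had 1.02 ± 0.31 and CT6.12 (adjusted p = 0.392), with a highest pool of 418 at CT30 and the CT46 pool at the floor, so the size of its amplitude depends on the floor.

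Among other PPAR targets 2 of 12 had an unadjusted p below 0.05: Lpl, lipoprotein lipase (0.25 ± 0.05, CT10.4, limma adjusted p = 0.100), and Pck1, the gluconeogenic and glyceroneogenic carboxykinase (0.68 ± 0.17, CT5.79, adjusted p = 0.248). Pck1 stood at 1417 at CT18, 5202 at CT22, 6322 at CT26 and 5581 at CT30, and at 2458 at CT62. Like Pdk4 it was lowest at CT18 and CT62, but CT18 was also the lowest pool of Ppara, Acadl, Slc27a2, Crat and Acads, among others. Receptor partners and coregulators had 0 of 7 with an unadjusted p below 0.05, with the smallest p values those of Ppargc1a, a coactivator of PPARs (0.36 ± 0.15, CT6.28, adjusted p = 0.577), and Nrip1, a corepressor (0.19 ± 0.09, CT11.6). Among pyruvate dehydrogenase and its kinases, 1 of 6, the subunit gene Pdhb (0.11 ± 0.04, CT0.87, adjusted p = 0.466), had an unadjusted p below 0.05, and the kinase Pdk1 had 0.14 ± 0.06 with a peak at CT2.06.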

How the data were processed

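The intensities were used as deposited by the authors, 1 linear value per probe set and array. Neither software nor scale factor is given in the sources used here. The members and gene lists were chosen with earlier results of these data known.

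Control probe sets (66) were left out. Probe sets were named from the platform annotation (10833 with 1 gene, 396 with several, 1193 not listed), and 10817 gene identifiers matched RefSeq of GRCm38.p6 with 0 symbols changed. Intensities below the 20th percentile of positive values (36.7) were set to it and log2 was taken. The CT18 arrays were averaged, since the labels do not say whether they came from separate pools. Probe sets with a mean at or above the 40th percentile of means (48.5) were kept: 7453 probe sets, 5655 genes. Where several probe sets named 1 gene, the brightest stood for it.

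In limma 3.58.1 (R 4.3.3), cosine and sine of 24 h, a day term, marker slopes and a difference in rhythm between days were fitted (eBayes with trend, Benjamini-Hochberg over 7453, threshold 0.05) with 9 residual degrees of freedom for the rhythm, 8 for the day and the slopes and 6 for the difference in rhythm. Receptor differences were tested with 100000 permutations of the 12 time points. The fits of the rhythm, the day term, the skeletal muscle slope and the difference in rhythm were run on simulated data, with outcomes not given here. The adipocyte and brown fat slopes and the permutation test were not. Named were every member probe set, the 2 smallest rhythm p values of each list, the 3 nearest profiles of each member, 4 clock genes and at most 2 markers a list, and others where the text says that they were chosen after their values were seen. Alternatives covered floor, filter, scaling, variance trend, marker covariates and left-out arrays or pools. Figures were drawn with matplotlib 3.10.9 in Python 3.11.15.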

Additional observations from a re-analysis of the deposited data

Results flagged for a closer look

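Acadm at CT58, with an intensity of 8686, stood apart from the other 5 pools of the second day, which lay between 7777 and 7973. It was the 1 group of 14 (7 members on 2 days) in which the highest or lowest pool stood this far from the rest. Chance gives about 1 in 20 for each group checked, and 1 of 14 is near that rate. The same pool was highest in brown fat markers and had raised skeletal muscle markers (0.52 and 0.80 above their means, log2), and the part of these tissues was not tested.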

How the results depend on the processing

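Replicate numbers pair no samples here, since each time point is 1 pool. Pairing pools 24 h apart with circadian time as the block, added after the data were examined, gave 0 probe sets for the second day minus the first, as without the block, and changed no member's call (adjusted p 0.645 for Acadm to 0.938 for Ppara). Probe sets past the threshold for a 24-h rhythm numbered 26, against 4 without the filter, 5 after centring arrays on their medians, 4 without the variance trend, 4 without CT18, CT34 and CT58 (2 of them among the 26; this fit lacks circadian time 10), 9 with muscle, atrial and thymus covariates, 9 with brown fat markers as covariate, and 8 (without CT54) to 40 (without CT30) leaving out a pool or array. The count was 10 without CT18, 10 without CT34, 9 without CT42, 17 without CT46, 14 without CT58 and 13 without CT62. For Ppara the adjusted p was 0.0967, 0.0577, 0.0709, 0.150 and 0.195 in these fits with no filter, median centring, no trend, without the 3 pools and with brown fat markers, 0.0527 with adipocyte markers, and 0.0114 to 0.0607 leaving out a pool or array (0.0543 without CT54, 0.0607 without CT18). The skeletal muscle slope count of 29 was 0 without CT18, CT34 and CT58 and 17 (without CT34) to 35 leaving out a pool or array. The brown fat slope count of 0 was 1 without the 24-h terms, and the day count of 0 was 0 to 2 (2 without CT42). Ppara minus Pparg had an adjusted p of 0.147 without CT18, CT34 and CT58 and of 0.00456 to 0.0577 leaving out a pool or array, and Ppara minus Ppard of 0.00147 to 0.0137. The cause of these changes was not tested. No other member passed any test in any alternative run. A further 1115 alternative values counted as unchanged. Among these, adjusted p values kept their side of the threshold, and day minus night differences moved by less than the member's SD over pools. The Ppara day and night pools did not overlap in any of 19 alternatives. An alternative with another probe set of each receptor was not run, since each receptor has 1. Scaling moved the median day minus night difference of all probe sets between -0.03 and 0.03 (log2). Low probe sets such as that of Ppard are limited by background.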
